A study of Mus musculus with 9 samples.

Results

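Cells of the Lewis lung carcinoma (LLC) line, a tumour line from mouse lung, were grown in medium conditioned by stressed or unstressed macrophages of 2 kinds. For 49 genes the measured response to stressed medium differed between the kinds of macrophage beyond the threshold given below. Each group was 1 library, so no difference was tested, and most of the 49 genes were of low level. For each gene, the response to stressed medium was taken as the log2(CPM + 1) in stressed medium minus that in unstressed medium, where CPM is the read count scaled to library size. The response to M medium was then subtracted from the response to GM medium. Of 11190 genes compared, namely those whose mean in the 5 LLC libraries was 1 CPM or more, 35 had a difference of responses at or above 1 and 14 had one at or below -1. The table listed 21936 genes in all.

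The cells were of strain C57BL. Bone-marrow-derived macrophages of 2 kinds, called GM-BMDM and M-BMDM by the submitters, were kept without tunicamycin or with it for 12 h and washed, and fresh serum-containing medium was left on them for 16 h. LLC cells were grown for 24 h in that medium, and 1 further LLC culture was left untreated. The groups were thus untreated LLC cells, and LLC cells in unstressed GM medium, stressed GM medium, unstressed M medium and stressed M medium, where stressed means that the macrophages had received tunicamycin. Each group was 1 library, with 15020068 to 17128471 assigned reads. The medium of the untreated culture is not stated in the sources used here. The same labels cover 4 libraries of the macrophages themselves, GM-BMDM and M-BMDM untreated or after 4 h of tunicamycin, with 37695079 to 42751176 assigned reads.

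No p-value is given for any difference. With 1 library per group, a fit of the difference of responses leaves 0 residual degrees of freedom. Intervals are at 95% and cover counting error only, so they say nothing of how far a second culture would have differed. The members were chosen on these values, which are therefore a description.

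Tunicamycin blocks N-linked glycosylation in the endoplasmic reticulum (ER), so that proteins misfold there and the cell starts the unfolded protein response. Tumour cells placed in medium from stressed cells can take up such a response themselves, and they can also answer to cytokines in it. NF-kB and C/EBP are transcription factors that act at the promoters of many inflammatory genes, among them neutrophil-attracting chemokines, complement C3 and acute-phase proteins. AP-1 is a factor known for its part in the control of matrix metalloproteinase genes, and interferon-stimulated response elements bind the factors that act after interferon.

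The bases before the start of 6 of the higher genes are shown as examples of secreted chemokine, complement, acute-phase and protease genes, chosen because a motif match lies in them. The sequences are from RefSeq on GRCm38.p6, on the strand of the gene, and end before both the RefSeq start and the deposited gene start. Capitals mark matches to 4 motifs searched on both strands: for NF-kB (in Cxcl1) GGGA, any base and TTTCC, for C/EBP (in C3, Saa3 and Mmp3) TTGCNNAA, for AP-1 (in Mmp3, Mmp13 and Cxcl10) TGANTCA, and for the interferon-stimulated response element (in Saa3, Mmp13 and Cxcl10) GAAA, any 2 bases and GAAA. N stands for any base, and no 2 matches overlap in these sequences.
Cxcl1, chr5:90890995-90891240, plus strand: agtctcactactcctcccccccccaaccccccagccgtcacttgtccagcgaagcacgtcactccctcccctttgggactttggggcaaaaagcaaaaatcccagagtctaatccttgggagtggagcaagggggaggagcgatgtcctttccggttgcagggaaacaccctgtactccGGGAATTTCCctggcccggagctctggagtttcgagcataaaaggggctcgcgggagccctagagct
C3, chr17:57228137-57228386, minus strand: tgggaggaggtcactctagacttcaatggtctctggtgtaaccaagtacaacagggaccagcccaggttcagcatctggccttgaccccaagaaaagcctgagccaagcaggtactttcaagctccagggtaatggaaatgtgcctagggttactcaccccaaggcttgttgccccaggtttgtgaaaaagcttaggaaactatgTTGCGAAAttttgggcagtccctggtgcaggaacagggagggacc
Saa3, chr7:46715701-46715926, minus strand: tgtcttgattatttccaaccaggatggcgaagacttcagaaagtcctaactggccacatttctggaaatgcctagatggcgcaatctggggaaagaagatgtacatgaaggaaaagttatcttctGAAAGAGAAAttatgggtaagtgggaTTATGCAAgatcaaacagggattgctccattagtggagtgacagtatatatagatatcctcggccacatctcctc
Mmp3, chr9:7445572-7445821, plus strand: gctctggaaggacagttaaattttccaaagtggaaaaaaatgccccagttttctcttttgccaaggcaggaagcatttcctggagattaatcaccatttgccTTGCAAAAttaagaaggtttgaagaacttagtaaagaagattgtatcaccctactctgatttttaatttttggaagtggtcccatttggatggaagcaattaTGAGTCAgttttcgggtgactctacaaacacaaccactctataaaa
Mmp13, chr9:7272264-7272513, plus strand: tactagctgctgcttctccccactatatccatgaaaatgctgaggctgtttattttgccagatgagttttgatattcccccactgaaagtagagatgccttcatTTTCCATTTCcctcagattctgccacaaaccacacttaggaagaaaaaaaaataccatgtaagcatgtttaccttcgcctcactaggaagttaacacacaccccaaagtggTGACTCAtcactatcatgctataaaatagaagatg
Cxcl10, chr5:92348890-92349139, minus strand: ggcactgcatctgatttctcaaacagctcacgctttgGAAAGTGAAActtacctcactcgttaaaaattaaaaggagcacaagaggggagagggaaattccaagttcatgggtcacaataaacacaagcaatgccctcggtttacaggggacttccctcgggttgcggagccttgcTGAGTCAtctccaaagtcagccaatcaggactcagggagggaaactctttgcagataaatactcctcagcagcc

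Of the 49 genes, 34 had a promoter in the RefSeq table, 22 of them higher and 12 lower, and the motifs were counted from 250 bases before to 50 after the start. TTGCNNAA and the NF-kB motif with TTTCC were added after the values were seen, so their counts are no independent support. TTGCNNAA was in 5 of 22 higher genes (C3, Saa3, Mmp3, Lcn2 and Gm5148) and 0 of 12 lower genes, beside 9.52% of 8999 promoters of genes compared. TGANTCA was in 3 of 22 higher and 2 of 12 lower genes, beside 5.93% of all. The interferon-stimulated response element was in 4 of 22 and 2 of 12, beside 3.54%. The NF-kB motif was in 1 of 22 higher genes, Cxcl1, beside 0.478% of all promoters, and a broader form (GGG, any 5 bases and CC) was in 16 of 22 beside 73% of all. The element of the ER stress response (CCAAT, any 9 bases and CCACG) was in none of the 34, and neither was TGATGNAAN, which C/EBP and ATF factors share. These stood in 0.167% and 2.57% of all promoters. The other elements searched were CACGTG (E-box), in 1 of 22 higher and 0 of 12 lower genes beside 11.9% of all, TGACGTCA (CRE), in 0 and 2 (Magohb and Plekha4) beside 3.79%, NACGTG (hypoxia), in 4 and 2 beside 29.9%, and TGANNNNGC (antioxidant), in 12 and 6 beside 47.8%. NACGTG also matches every CACGTG. A match is only a run of letters and shows no binding.

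Genes at or above 1 made up 0.313% of the genes compared, and genes at or below -1 made up 0.125%. Over all genes the median difference of responses was -0.012 with a standard deviation (SD) of 0.243 across genes, and 94.7% of genes lay between -0.5 and 0.5. The 49 genes were mostly of low level: the higher genes had a median of 2.022 CPM over the 5 libraries and the lower genes one of 1.682, beside 40.13 for all genes. A mean under 5 CPM was found for 27 of the 35 and 11 of the 14, and for 11.9% of all genes. Genes of low level also had wider counting error. In the 519 genes with means of 1 to 2 CPM, 4.82% were members and the median counting error of the log2 ratio of folds (the fold in GM medium divided by the fold in M medium) was 0.654. At 20 to 100 CPM, 0.0778% of 5144 genes were members and that error was 0.106, and at 100 CPM or more no gene of 2521 was a member.

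**Figure D1:**
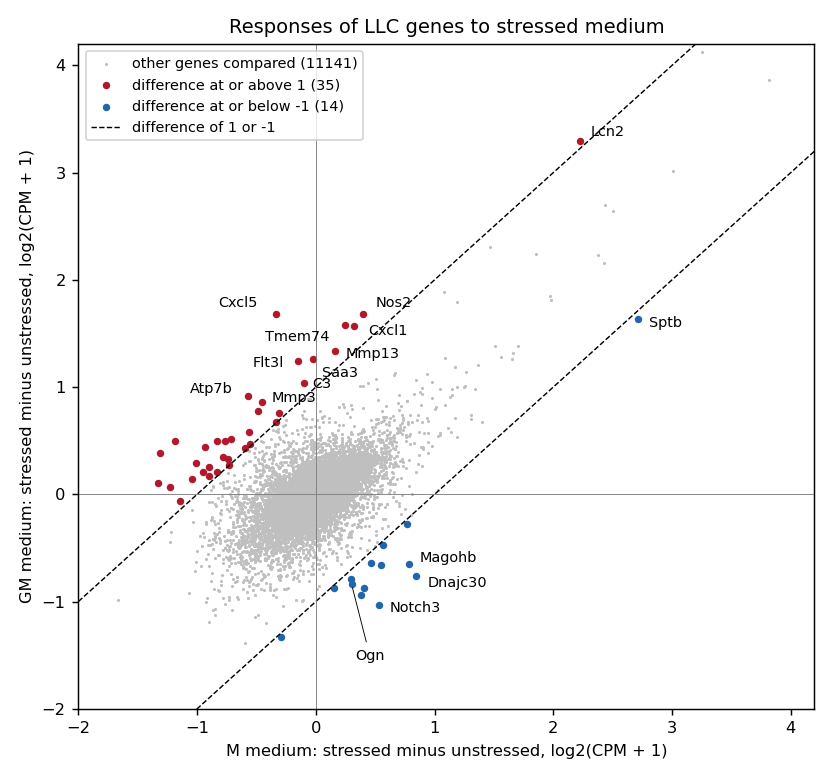
Response of each LLC gene to stressed M medium (x axis) and to stressed GM medium (y axis), each as stressed minus unstressed log2(CPM + 1). Red points are the 35 genes at or above a difference of 1, blue points the 14 at or below -1, and grey points the other genes compared. Most red points lie left of 0 and above 0, and Lcn2 and Sptb lie far along the diagonal, with a large response to both media.

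The 2 responses pointed in opposite directions in 29 of the 35 higher genes and 12 of the 14 lower ones. A difference of this size favours opposite signs, so these counts follow in part from the rule. The higher genes were grouped by the library in which they were highest. Stressed GM medium gave the highest level of the 4 media in 17, beside 22.4% of all genes compared. Unstressed M medium did so in 18, beside 27.6%. A high level in either library raises the difference, so the rule itself favours both. The first 17 had a median response of 1.04 to GM medium and -0.31 to M medium, and the 18 had medians of 0.31 and -0.87. The chemokine, complement, acute-phase and matrix protease genes described next were among the first 17, with the exception of Cxcl10.

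Cxcl5 and Cxcl1, which code for chemokines that bind CXCR2 and draw in neutrophils, were both highest in stressed GM medium. Cxcl5 had the largest difference of the 11190 genes, 2.02. Its level was 1.12 CPM in untreated cells, 1.49 in unstressed and 6.99 in stressed GM medium, and 1.16 in unstressed and 0.710 in stressed M medium. The stressed GM library stood apart from the other 4, and Cxcl5 was 4.68-fold higher there than in unstressed GM medium (2.97 to 7.68). The ratio of its folds was 7.65 (3.25 to 18.04).

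Cxcl1, which codes for another ligand of that receptor, was measured with far more reads, 325 to 1025 per library. It had 54.8 CPM in untreated cells, 21.1 in unstressed and 64.6 in stressed GM medium, and 22.0 and 27.7 in unstressed and stressed M medium. Untreated cells and stressed GM medium were thus high and the other 3 libraries low. The difference was 1.25, with folds of 3.06 in GM medium (2.70 to 3.47) and 1.26 in M medium (1.09 to 1.45), and the ratio of folds was 2.43 (2.02 to 2.93).

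Cxcl5 and Cxcl1 lie in 1 cluster of chemokine genes on chromosome 5 (GRCm38), Cxcl5 at chr5:90759360-90761624 and Cxcl1 at chr5:90891241-90893115. Their neighbour Cxcl2, another chemokine gene of this kind, did not reach the threshold, at 0.81. Its 6.89 CPM in unstressed and 28.2 in stressed GM medium, and 6.06 and 13.9 in M medium, showed a higher level in both stressed media. Ppbp, between Cxcl5 and Cxcl1, had a difference of 0.26, and Pf4, Cxcl3 and Cxcl15 were below the level for comparison. In bulk RNA, fewer cells of a type and less RNA per cell cannot be told apart.

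Complement C3, the central protein of the complement cascade, had more reads than any other higher gene except Cxcl1. Its level was 13.6 CPM in untreated cells, 39.8 in unstressed and 82.7 in stressed GM medium, and 12.6 and 11.7 in unstressed and stressed M medium. Both GM media were above the 3 other libraries, which lay close together. The difference was 1.14, with a GM fold of 2.08 (1.89 to 2.29), an M fold of 0.926 (0.756 to 1.13) and a ratio of 2.25 (1.80 to 2.80). Already without tunicamycin, GM medium gave C3 a log2 difference of 1.58 over M medium, and with it 2.72.

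Lcn2, which codes for lipocalin 2, an iron-siderophore-binding protein of the acute phase, had a large response to both stressed media. It had 0.461 CPM in untreated cells, 1.69 and 1.61 in the unstressed GM and M media, 25.4 in stressed GM medium and 11.2 in stressed M medium. The folds were 15.02 in GM medium (10.1 to 23.3) and 6.97 in M medium (4.58 to 11.0). The difference of 1.07 thus separates a larger from a smaller response, and the ratio of folds was 2.16 (1.21 to 3.83).

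Saa3, an acute-phase apolipoprotein, and Nos2, the inducible nitric oxide synthase, also had their highest level in stressed GM medium, at much lower counts. Saa3 had 62 reads in stressed GM medium and 4 to 16 in the other libraries, or 3.90 CPM against 0.237 to 1.04. Nos2 had 68 reads in stressed GM medium and 4 to 14 elsewhere. Their differences were 1.29 and 1.28, and theirs were the 2 of 35 ratios of folds whose interval included 1, at 4.10 (0.923 to 18.2) for Saa3 and 3.08 (0.962 to 9.87) for Nos2. For both, stressed GM medium was the only library above 2 CPM. Their means over the 5 libraries, 1.21 and 1.28 CPM, reached the level for comparison through that library alone.

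Among proteases that cut the extracellular matrix, Mmp3, the stromelysin, had a difference of 1.31. It had 16.8 CPM in untreated cells, 23.7 in unstressed and 43.9 in stressed GM medium, and 16.5 and 11.8 in unstressed and stressed M medium. Its GM fold was 1.85 (1.63 to 2.11) and its M fold 0.715 (0.591 to 0.864), both intervals away from 1 and on opposite sides of it.

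Mmp13, a collagenase, had 9.09 CPM in untreated cells, 10.1 in unstressed and 27.2 in stressed GM medium, and 5.29 and 6.03 in unstressed and stressed M medium. The stressed GM library alone was high, with a GM fold of 2.68 (2.23 to 3.24), an M fold of 1.14 (0.844 to 1.54) and a difference of 1.18. Mmp3 and Mmp13 lie in the metalloproteinase cluster of chromosome 9, at chr9:7445822-7455975 and chr9:7272514-7283331. Mmp12 and Mmp1b, which lie between them, had at most 8 reads in an LLC library and were not compared. Of the other genes of that cluster, Mmp10 had 7 to 25 reads in the 5 libraries and was below the level for comparison. Mmp7 and Mmp8 had no read in any LLC library.

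Adamts7, which codes for a protease that cuts cartilage oligomeric matrix protein, had responses of opposite sign. It had 24.6 CPM in untreated cells, 18.6 in unstressed and 28.4 in stressed GM medium, and 13.0 and 8.52 in unstressed and stressed M medium. The folds were 1.52 (1.31 to 1.77) and 0.653 (0.524 to 0.813), and the difference was 1.14. Adamts7 overlaps Tbc1d2b on the other strand, which had a difference of -0.06. Mmp9, a gelatinase, was just below the threshold at 0.96, with 5.52 and 7.62 CPM in GM media and 3.61 and 2.13 in M media.

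**Figure D2:**
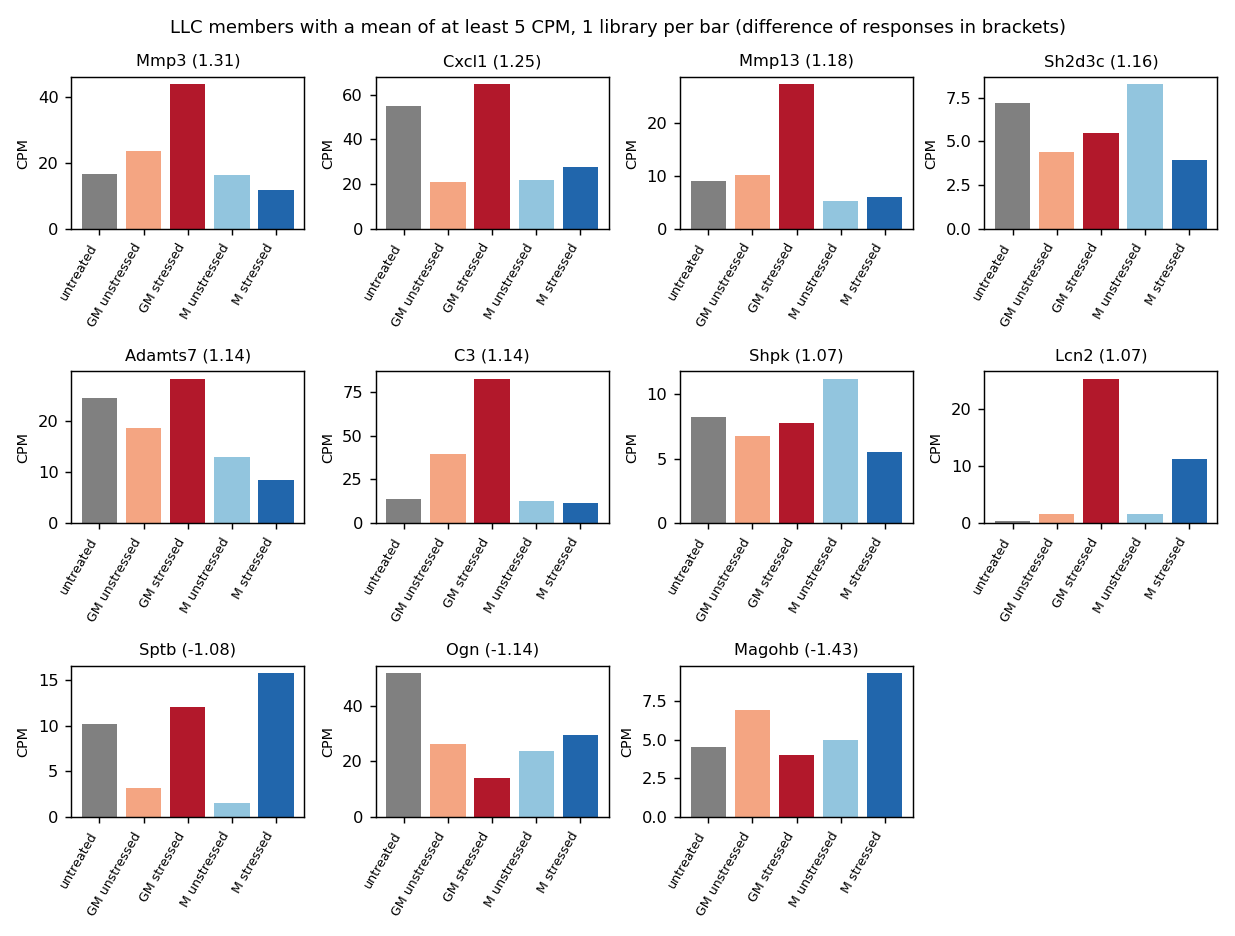
CPM (y axis, from 0) of the 11 members with a mean of at least 5 CPM, with 1 bar per LLC library and no error bar because each group is 1 library. Red bars, stressed GM medium, are the highest in Mmp3, Cxcl1, Mmp13, Adamts7, C3 and Lcn2, and dark blue bars, stressed M medium, are the lowest of the 4 media in Sh2d3c and Shpk.

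Further genes highest in stressed GM medium had other roles. Tmem74, a membrane protein gene linked to autophagy, had 3.43 CPM in untreated cells, 1.10 in unstressed and 5.29 in stressed GM medium, and 3.29 and 4.08 in M media. Here the unstressed GM library was the low one, and the difference was 1.34. Atp7b, the copper transporter of the secretory pathway, had 2.34 and 5.29 CPM in GM media and 4.00 and 2.37 in M media, so that the stressed library was the higher of the pair for GM medium and the lower for M medium.

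Flt3l, the ligand of the Flt3 receptor of dendritic cell precursors, rests on 3 reads in unstressed GM medium beside 20 to 29 in the other 4 libraries, the untreated one included. Its difference of 1.39 and ratio of 11.2 (2.96 to 42.7) therefore rest on 1 low library. Lysmd2 stood just inside the threshold at 1.01. Gm14419, Pih1d2 and Pcdhb5, also of this kind, had 1.07 to 1.68.

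The 18 genes highest in unstressed M medium formed the other side of the higher genes. All 18 were lower in stressed than in unstressed M medium, by log2 values of -1.33 to -0.55, while their responses to GM medium lay between -0.06 and 0.52. None of them had a GM response of 1 or more. The group was defined by its highest library, so the fall in M medium holds for each by definition. For the same reason no level in GM medium could exceed that in unstressed M medium. Untreated cells lay inside the range of the 4 media in 13 of the 18, which the wide range of members favours.

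Sh2d3c, a signalling adaptor, was the best measured gene of these beside Shpk. It had 7.18 CPM in untreated cells, 4.42 in unstressed and 5.48 in stressed GM medium, and 8.26 and 3.96 in unstressed and stressed M medium, with a difference of 1.16. Shpk, the sedoheptulose kinase of carbohydrate metabolism, had 8.23 CPM in untreated cells, 6.76 and 7.75 in GM media and 11.2 and 5.56 in M media, with a difference of 1.07. In both genes the M fold was under 1 beyond counting error, at 0.480 (0.352 to 0.650) and 0.495 (0.381 to 0.640), and the interval of the GM fold included 1.

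Dnajc17, of the DnaJ co-chaperone family, stood just inside the threshold at 1.02 with 3.64 and 5.42 CPM in GM media and 5.94 and 3.73 in M media. It overlaps Zfyve19 and Gm14137 on the other strand, which had differences of 0.21 and 0.38.

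Cxcl10, the interferon-inducible ligand of CXCR3, was of this second kind and not of the first. It had 17 and 21 reads in unstressed and stressed GM medium, 24 in unstressed M medium and 4 in stressed M medium, with 19 in untreated cells. Only the stressed M library was low, with an M fold of 0.153 (0.0385 to 0.445) and a GM fold of 1.20 (0.602 to 2.42). The difference was 1.19.

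The other 14 genes of this kind had at most 66 reads in any library. Ccdc13 had the second largest difference, 1.69, with 32 reads in unstressed and 4 in stressed M medium. Sparcl1, a matrix glycoprotein gene, had a difference of 1.37, Pou2f2, which codes for the transcription factor Oct-2, 1.32, and Actn2, a muscle actinin gene, 1.31. Palm3 had 1.30, Gstt2, a glutathione transferase gene, 1.26, and Cers1, a ceramide synthase gene, 1.08. Nrtn, Hdac11, Padi1, Ptges3l, Iqcd, Gm5148 and 2010300C02Rik had 1.002 to 1.43.

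**Figure D3:**
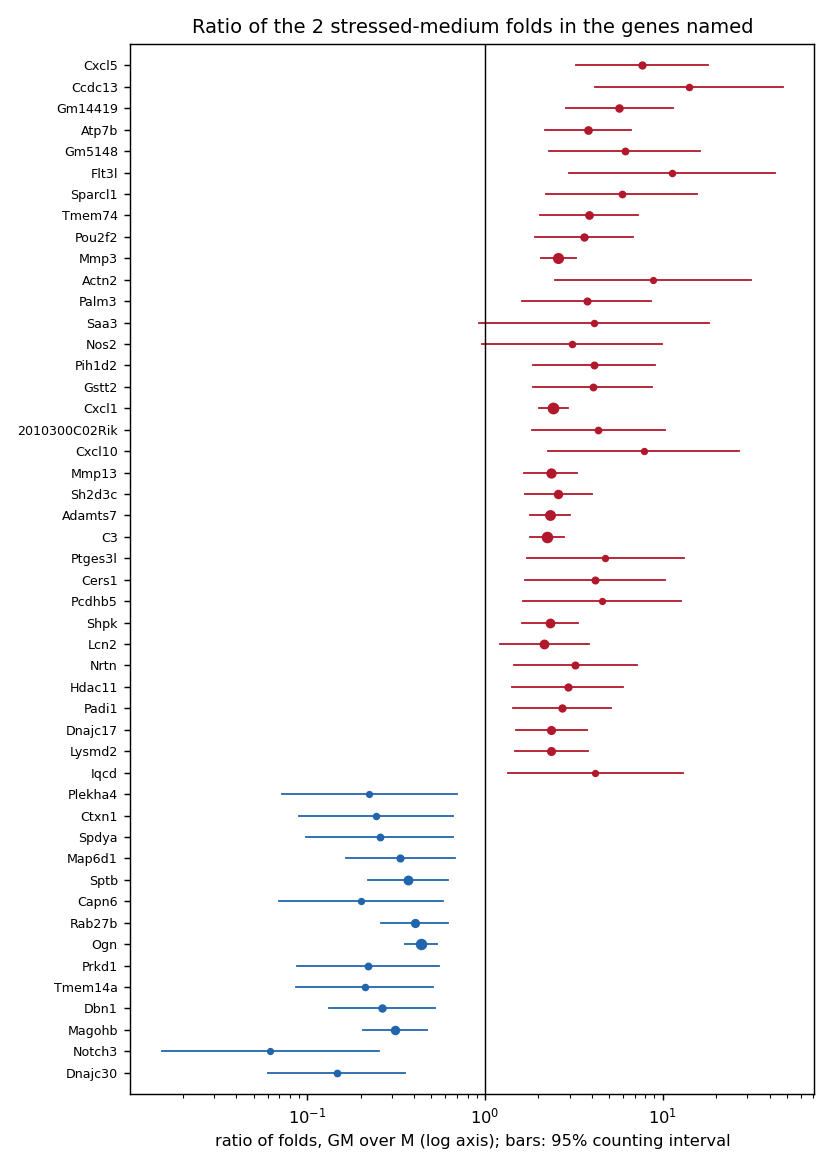
Ratio of the fold in GM medium to the fold in M medium (x axis, log scale) for the members reported by name, in order of the difference of responses, with 95% intervals from counting error; larger points mark higher mean CPM. The intervals of Saa3 and Nos2 include 1, and those of Mmp3, Cxcl1, Adamts7, C3 and Ogn are the narrow ones.

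A counting interval above 1 was found for 33 of the 35 higher genes and one below 1 for all 14 lower genes. Among all genes compared, 9.41% had an interval above 1 and 13.4% one below 1, so that an interval clear of 1 was common in these libraries, and the rule itself favours it in the members.

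The 14 lower genes were higher in stressed M medium, lower in stressed GM medium, or both. Unstressed GM medium held the highest level of the 4 media in 8, beside 24.9% of all genes compared, and stressed M medium in 6, beside 25.1%. The rule favours both of these libraries in the lower genes. Ogn, which codes for osteoglycin, a small leucine-rich proteoglycan of the matrix, was the lower gene with the most reads. It had 51.7 CPM in untreated cells, 26.1 in unstressed and 14.2 in stressed GM medium, and 23.8 and 29.6 in unstressed and stressed M medium. Untreated cells were above all 4 media and stressed GM medium was below the others. The folds were 0.542 (0.459 to 0.640) and 1.24 (1.08 to 1.42), the difference was -1.14 and the ratio of folds 0.437 (0.354 to 0.540). Ogn lies inside Cenpp on the other strand, which had a difference of -0.13. Its neighbours in the leucine-rich proteoglycan cluster of chromosome 13, Omd, Aspn and Ecm2, had 21 reads or fewer in each library and were not compared.

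Magohb, a core subunit gene of the exon junction complex, had 4.54 CPM in untreated cells, 6.89 in unstressed and 4.03 in stressed GM medium, and 4.97 and 9.28 in unstressed and stressed M medium. The responses had opposite signs beyond counting error, with folds of 0.585 (0.422 to 0.806) and 1.87 (1.41 to 2.49), and the difference was -1.43.

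Sptb, which codes for the beta spectrin of the red cell membrane skeleton, was lower by the rule although both of its responses were above 0. It had 10.1 CPM in untreated cells, 3.18 in unstressed and 12.0 in stressed GM medium, and 1.55 and 15.7 in unstressed and stressed M medium. The folds were 3.76 (2.73 to 5.26) and 10.2 (6.68 to 16.1). Unstressed media were the low libraries, and untreated cells lay between them and the stressed ones. Of 3 erythroid markers, the haemoglobin gene Hbb-bs was at 0 in all 5 libraries, and the 3 summed to 0.945 to 2.39 CPM.

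Rab27b, a Rab GTPase gene of vesicle secretion, had 3.03 CPM in untreated cells, 7.34 and 4.35 in GM media and 4.06 and 5.97 in M media, with a difference of -1.10. Untreated cells were the lowest of the 5. Notch3, a Notch receptor gene, had a difference of -1.56 on very few reads, 24 and 4 in unstressed and stressed GM medium, 6 and 17 in M medium and 30 in untreated cells. Dnajc30, a mitochondrial DnaJ protein gene, had the lowest difference of all, -1.61, with 32 and 13 reads in GM media and 14 and 41 in M media. It overlaps Bud23 on the other strand, which had a difference of 0.12.

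The remaining lower genes, Plekha4, Ctxn1, Spdya, Map6d1, Capn6, Prkd1, Tmem14a and Dbn1, had differences of -1.32 to -1.03 and at most 57 reads in any library. Dbn1 codes for drebrin, an actin-binding protein, and Prkd1 for protein kinase D1. Of the 14 lower genes, Notch3 and Spdya had a GM response at or below -1, which 0.125% of all genes had. Of the 35 higher genes, 9 had a GM response at or above 1, beside 0.393% of all genes, and 7 an M response at or below -1, beside 0.143%. Sptb was the 1 lower gene with an M response at or above 1, beside 0.411% of all genes. Between the kinds of medium, stressed GM minus stressed M medium was at or above 1 in 12 of the 35, beside 0.206% of all genes, and unstressed GM minus unstressed M medium was at or below -1 in 4 of the 35, beside 0.0626%. For the 14 lower genes the stressed pair was at or below -1 in 2, beside 0.0536%, and the unstressed pair at or above 1 in 0, beside 0.125%. These shares follow from the rule and are given as a description. Neither response reached 1 in 19 of the 35 and 11 of the 14.

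Genes of the list of NF-kB cytokines and chemokines mostly had differences above 0. Of the 29 genes of this list in the deposited data, 18 were compared. Of these 18, 16 were above 0 and 2 below, and 4 were members, all higher (Cxcl5, Saa3, Cxcl1 and Lcn2). Of all genes compared, 0.313% were at or above 1. All 4 were chosen on these values, and the list with earlier results of these data known, so none of them is separate support. Saa3 also reached the level for comparison only through stressed GM medium, where it was high. The list's median difference was 0.38, beside -0.012 over all genes, of which 5298 of 11190 were above 0. Nfkbiz, which codes for an inducible NF-kB cofactor, had 0.50, the chemokine genes Ccl2 and Ccl7 had 0.48 each, and Nfkbia, the inhibitor gene that NF-kB itself turns on, had 0.36. Against that order, Csf1, the gene of the macrophage growth factor M-CSF, had -0.54 and Lif, a cytokine gene of the interleukin 6 family, -0.57. Csf1 had 232 and 255 CPM in GM media and 144 and 233 in M media, so unstressed M medium was its low library. Il1b and Il6 had at most 2 reads in an LLC library and Tnf had none.

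**Figure D4:**
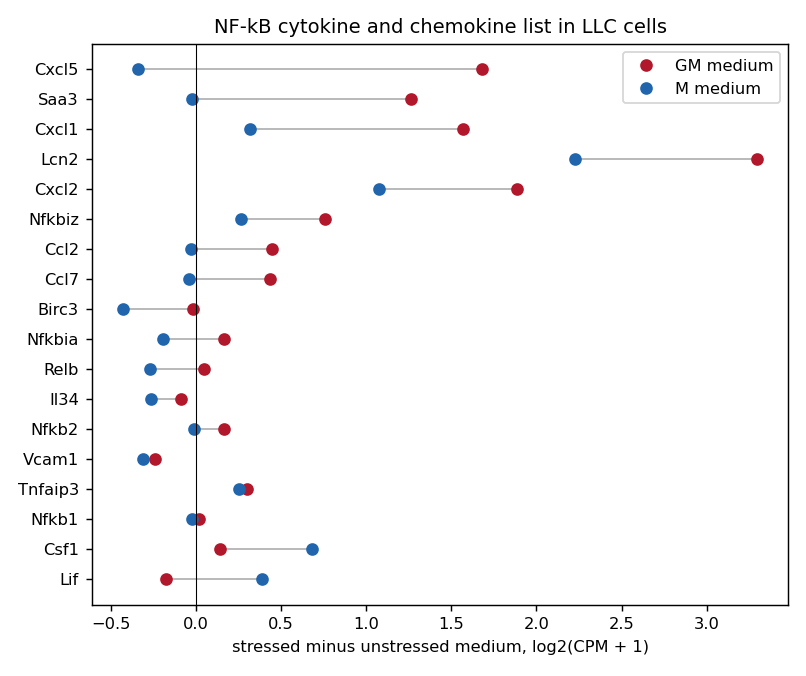
Responses of the 18 compared genes of the NF-kB list to stressed GM medium (red) and stressed M medium (blue), as stressed minus unstressed log2(CPM + 1), 1 value per gene and medium. The red point lies right of the blue one in 16 genes, and left of it in Csf1 and Lif.

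Interferon-stimulated genes were above 0 in 16 of 18, with a median of 0.14. Cxcl10 was the 1 member, at or above 1 like 0.313% of all genes. Irf9, a subunit gene of the interferon-activated factor, had 0.86, Isg15 had 0.63 and Ifit2 had -0.53. Irf9 had 6.17 and 8.75 CPM in GM media and 8.64 and 6.21 in M media. Of 14 genes of antigen presentation by MHC class I, 10 were above 0, with a median of 0.15, and none was a member. H2-Q4 led them at 0.77.

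Among 16 protease, inhibitor and plasminogen genes the order was mixed, with 7 above 0, 9 below and a median of -0.04. Mmp3 and Mmp13 were the members, both at or above 1, beside 0.313% of all genes. Plat, the tissue plasminogen activator gene, was lowest at -0.56. Of 24 collagen and matrix genes, 19 were below 0, with a median of -0.20 and no member. Col1a2 had -0.88 and Bgn -0.79. Of 6 Notch genes compared, 5 were below 0, with a median of -0.48. Notch3 was the 1 member, at or below -1 like 0.125% of all genes. It reached the level for comparison only with the untreated library, where it had 1.98 CPM. Hes1, a Notch target, had -0.79, Jag1, a ligand gene, -0.50, and Notch1 -0.46, while Notch2, the receptor gene with the most reads, had -0.01. Notch4 was above 0, at 0.18.

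ER stress genes were not among the 49. Members were 0.313% (higher) and 0.125% (lower) of all genes, and none of 2521 genes at 100 CPM or more. A count of 0 members in a list of this size therefore says little about its genes. Of 24 genes of ER chaperones and degradation, none was at or beyond 1 in either direction, 19 were below 0 and the median was -0.06. Its median responses were above 0 in both media, at 0.36 to GM medium and 0.49 to M medium. Hspa5, the chaperone BiP, had 1158 and 2555 CPM in GM media and 1206 and 2907 in M media, with a difference of -0.13. Of 28 genes of the integrated stress response, the programme of PERK and ATF4, none was a member, 21 were below 0 and the median was -0.11. The largest differences of this list were those of Cebpb, which codes for the factor C/EBP beta, at -0.63 (responses of -1.12 and -0.49), and Fgf21, a stress hormone gene, at -0.53. Ddit3, which codes for CHOP, had -0.11, Atf4 had 0.07, Trib3 0.07, Asns -0.08 and Chac1 -0.41.

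The lists of other programmes given here had no members either. At shares of 0.313% and 0.125% over all genes, that is the usual outcome for lists of this size. Of 24 lysosome and autophagy genes 21 were above 0, with a median of 0.14. DNA replication genes were below 0 in 19 of 24, with a median of -0.11, and mitosis genes in 19 of 22, with a median of -0.08. Cytosolic heat shock genes were below 0 in 12 of 13, with a median of -0.10. For prostaglandin enzymes the median of 8 was -0.03, and Ptgs2, the inducible cyclooxygenase gene, had -0.16 with a higher level in both stressed media.

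Untreated LLC cells entered the rule only through scaling and the level of 1 CPM. Their level lay inside the range of the 4 media for 27 of the 35 higher genes and 8 of the 14 lower ones. Over all genes compared, untreated cells were above all 4 media in 32.2% and below all 4 in 36.4%. The members were chosen for a wide spread of the 4 media, so a place inside that range is favoured by the rule. Among the higher genes, Sparcl1, Cers1 and Nrtn were among 4 above all media in untreated cells, and Nos2, Gstt2, Lcn2 and Padi1 below. Ctxn1, Ogn, Prkd1 and Notch3 of the lower genes were above, and Rab27b and Tmem14a below.

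Markers of immune and endothelial cells were low in the LLC libraries. Of 10 macrophage markers, 6 (Adgre1, Ptprc, Mrc1, Tyrobp, Itgam and C1qa) had no read in any of the 5 libraries, and the 10 summed to 4.09 to 8.30 CPM. That sum was 4.79 in stressed GM medium and 5.56 in stressed M medium. Neutrophil markers summed to 0.390 to 0.651 CPM, lymphocyte markers to 0.725 at most and endothelial markers to 0.593 at most. Of the epithelial markers, Krt8 and Krt18 made up nearly all of 363 to 526 CPM, and Cdh1, Krt19 and Epcam were below 1 CPM. Fibroblast markers were not low: they summed to 60.9 to 112 CPM, most of it Pdgfra, which had 85.9 CPM in untreated cells, 105 and 67.6 in unstressed and stressed GM medium, and 89.9 and 56.5 in M medium. Col1a1 and Thy1 were below 1 CPM, and the part of these markers in the results was not tested.

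The same difference was computed in the macrophages, as the response of GM-BMDM to 4 h of tunicamycin minus that of M-BMDM, in libraries the choice of members did not use. These cells were treated for a shorter time than those that conditioned the medium, and the response is to the drug itself. All 49 genes were in the macrophage table, and 11 of the higher and 5 of the lower genes had a mean of at least 1 CPM there. None of these 16 was at or above 1, beside 0.144% of the 9689 genes compared in both tables (86.6% of those compared in LLC cells), and Cxcl1 was the 1 gene at or below -1, beside 1.04%. The 11 higher genes had a median of -0.34, with 3 above 0 and 8 below, and the 5 lower genes had a median of -0.07, with 2 above and 3 below. The median of all 9689 genes was -0.003 and 49.5% were above 0.

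Cxcl1 thus had opposite signs in the 2 kinds of cell. In macrophages it had 0.671 CPM in untreated and 0.895 in tunicamycin-treated GM-BMDM, and 0.751 and 4.38 in M-BMDM, a difference of -1.44. In tumour cells the difference was 1.25. C3 and Saa3 were far above 1 CPM in all 4 macrophage libraries, C3 at 680 to 1165 CPM and Saa3 at 43.1 to 251, and their macrophage differences were 0.32 and 0.12. For both, M-BMDM had the higher level, while the tumour cells had the higher level in GM medium. Mmp13 was higher in GM-BMDM, at 68.1 and 63.8 CPM, than in M-BMDM, at 5.61 and 3.82, with a difference of 0.36. Lcn2 had 12.7 and 7.85 CPM in GM-BMDM and 1.93 and 1.92 in M-BMDM, with a difference of -0.62. Mmp3 and Nos2 were below 1 CPM in all 4 macrophage libraries, and Cxcl5 was at 0.213 to 1.69.

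**Figure D5:**
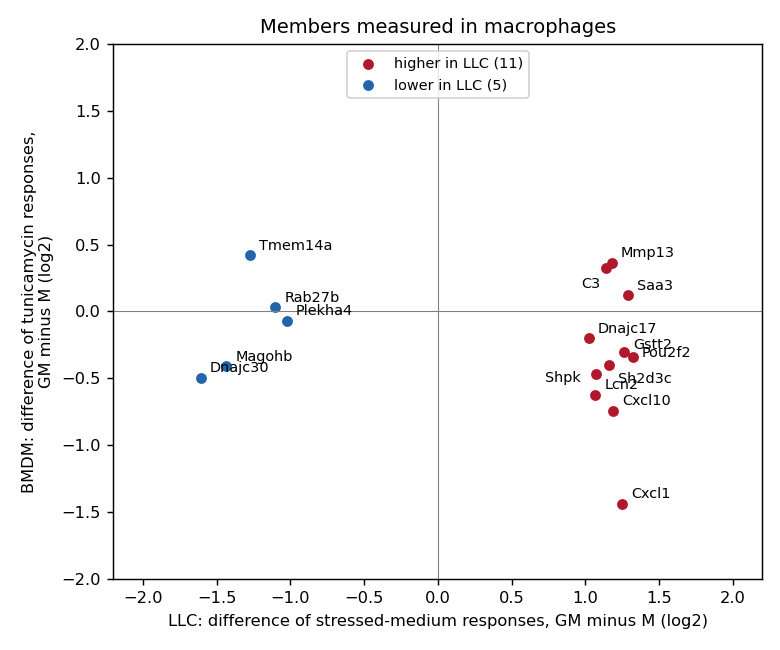
Difference of responses in LLC cells (x axis, stressed medium) and in macrophages (y axis, tunicamycin), GM minus M on log2(CPM + 1), for the 16 members with a mean of at least 1 CPM in macrophages. Of the 11 red points (higher in LLC), Mmp13, C3 and Saa3 lie above 0 and Cxcl1 is the lowest at -1.44.

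At the edge of the rule, Iqcd (1.002), Lysmd2 (1.01) and Dnajc17 (1.02) were the last inside among the higher genes, and Pthlh (0.96), Dhx58 (0.96) and Mmp9 (0.96) the first outside. Among the lower genes Plekha4 (-1.03), Ctxn1 (-1.04) and Spdya (-1.04) were the last inside, and Tph1 (-0.996), Gm6525 (-0.99) and Cmtr1 (-0.98) the first outside. Gene overlaps bear on some of the members. Flt3l, Cers1, Ptges3l and Pcdhb5 overlap other annotated genes on their own strand. Adamts7, Cxcl10, Dnajc17, Iqcd, Palm3, Pih1d2, Sh2d3c, Dnajc30, Ogn and Sptb overlap genes of the opposite strand only. The overlap was 1 base for Sptb and 2 bases for Palm3, but 2252 for Cxcl10 and 16456 for Ogn. The strand setting of the counting was not given, so reads that fall in an overlap could have been split or shared with the other gene. Leaving out every gene that overlaps another listed gene left 24 higher and 11 lower genes. The share of all genes compared that have no overlap is not given here. These counts therefore do not say whether overlap is more common among the members.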

How the data were processed

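The members and the gene lists were chosen with earlier results of these data known. Total RNA was taken with Trizol, per the labels' protocols, and sequenced in 9 libraries, 5 of LLC cells and 4 of macrophages, with 1 library per group. Titles and treatment labels gave the groups. The authors deposited a table of read counts per gene for each cell type, with FPKM beside the counts per the file headers, and the FPKM were recomputed from count, length and total within 5e-07 (LLC) and 4.9e-06 (macrophages) and used for that check alone. All count cells were whole numbers. A line-end character inside the last cells of the LLC table was stripped. Cutadapt 1.15, HISAT2 and TopHat2 2.1.0 stand in the submitters' processing notes, and neither the read counter nor its strandedness nor a genome build is given in the sources used here. Coordinates in the LLC table were equal to those of GENCODE M21 (GRCm38) for 99.0% of 21817 shared gene IDs and for all 49 members.

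CPM values were obtained per table by dividing the deposited counts by effective library sizes, for which edgeR 4.0.16 (R 4.3.3) gave the TMM factors, and the rest in Python 3.11.15. Differences are on log2(CPM + 1), which understates changes of genes near 1 CPM. Folds are CPM ratios with nothing added, with exact Clopper-Pearson intervals, and the ratio of folds has a log-normal interval from the counts. The code was tested on simulated data. The counts include 1 member that is not reported here by name. Lists numbered 31. The rule for named genes took up to 15 members per direction with at least 5 CPM in a medium, list members, up to 4 genes per list of largest difference and the genes at the threshold. Other named genes, the C/EBP motif and the narrower NF-kB motif, and 2 of the alternatives were chosen after values were seen. Other scalings, pseudocounts and level filters were tried as alternatives.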

Additional observations from a re-analysis of the deposited data

Results flagged for a closer look

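For 7 members, both responses were at least 0.5 in size and opposite in direction: the LLC library in stressed medium lay above its unstressed partner for 1 kind of macrophage and below it for the other. Each side is 1 pair of libraries, and the difference was not tested. Opposite responses of this size give a difference of at least 1, so any such gene is a member by the rule. The 7 are thus all such genes among the 11190 compared. Higher with GM medium and lower with M medium were Atp7b, with a difference of 1.485 (0.914 and -0.571), 2010300C02Rik, with 1.232 (0.517 and -0.714), and Adamts7, with 1.142 (0.582 and -0.560). Lower with GM medium and higher with M medium were Prkd1, with -1.213 (-0.663 and 0.550), Magohb, with -1.434 (-0.649 and 0.785), Notch3, with -1.563 (-1.032 and 0.532), and Dnajc30, with -1.607 (-0.760 and 0.848). Adamts7 rests on 144 to 451 reads per library and Magohb on 64 to 157, while Notch3 has 4 to 30. Reads were also few for Atp7b (36 to 84), Prkd1 (12 to 50), 2010300C02Rik (15 to 34) and Dnajc30 (13 to 41). The counting interval included 1 for the GM fold of 2010300C02Rik, 1.87 (0.972 to 3.76), and for the M fold of Notch3, 2.60 (0.977 to 8.05).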

How the results depend on the processing

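The counts of 35 higher and 14 lower genes depended on the pseudocount and the level filter. They were 67 and 34 with a pseudocount of 0.5, and 3 (C3, Cxcl1 and Mmp3) and 0 with one of 5. Without a filter on low values they were 51 and 25, and with a mean of at least 5 CPM 8 and 3. Ratios of folds of at least 2-fold either way without a pseudocount, with a counting interval clear of 1, an alternative chosen after seeing the data, gave 101 and 52, which included 33 of the 35 and all 14. With total counts, median-of-ratios or upper-quartile scaling the 49 genes were the same, and the median difference of all genes ran from -0.012 to 0.014. With the level set over the 4 media alone 33 and 12 remained. In macrophages 1 member was at or beyond 1, and 0 with a pseudocount of 5. All 49 kept their direction under each scaling and pseudocount, and the smallest difference in size was 0.341, with a pseudocount of 5. No library could be left out, because each group has 1, and no paired analysis was possible because the groups hold 1 library each. Depth limits the members of low level, since 11 of the 35 and 4 of the 14 had under 10 reads in a medium.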
